A study of Homo sapiens with 12 samples.

Results

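Transcripts of 10 nuclear receptor genes, RXRA, RXRB, RARA, RARG, NR1H2, NR1H3, PPARA, PPARD, VDR and THRA, were examined in HEL cells in which KDM4C, an enzyme that removes methyl groups from lysines of histone H3, was targeted by CRISPR-Cas9. They were taken by symbol from the 38551 genes of the count table, and all 10 passed the filter on low counts. RXRA was chosen by its measured difference from control in these libraries and the others as related receptors with earlier results known, so their differences from control are given as descriptions. The gene lists below were also chosen with earlier results known. Counts of receptors and of listed genes called against control stand beside the share of all genes called, and nothing is read from them. HEL cells are a JAK2-mutated line from a human erythroleukemia, and those used here also expressed Cas9 and were kept in blasticidin. The 3 groups had 4 libraries each: cells with the guide sg2 against KDM4C, cells with the guide sg3 against KDM4C, and control cells with a guide against luciferase. All received their guide by lentivirus, followed by 11 days of puromycin at 1.5 µg/mL, and the count table names dimethyl sulfoxide, a vehicle, for all 12 libraries. Nothing in the labels says that single clones were grown, and by the study's methods the replicates were split off only in the final treatment step, so the spread behind each p-value may be technical.

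Nuclear receptors are transcription factors that bind small lipid-soluble ligands. The retinoid X receptors (RXRA, RXRB and RXRG) pair with the retinoic acid receptors (RARA, RARB, RARG), the liver X receptors (NR1H2 and NR1H3, which sense oxysterols), the peroxisome proliferator-activated receptors (PPARA, PPARD, PPARG, which sense fatty acids), the vitamin D receptor VDR and the thyroid hormone receptors (THRA, THRB). The pairs bind DNA at repeats of a short half-site, hold corepressors without ligand and recruit coactivators with it. In blood cells, retinoic acid acting through RARA is known for its role in granulocyte differentiation, and RXRA is the main RXR of myeloid cells.

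RXRA, at chr9:134326455-134440586 on the plus strand of hg38, has 2 annotated starts, and RARG, at chr12:53210566-53232256 on the minus strand, has 1 in the promoter table used. The windows of both genes are shown because RXRA was the member furthest below control and RARG the member furthest above it. Each runs 5′ to 3′ from 250 bases before the start to 50 bases after it, from RefSeq with build GRCh38.p14, and capitals mark the GC box GGGCGG on either strand, overlapping matches included.
RXRA upstream start, chr9:134326205-134326504: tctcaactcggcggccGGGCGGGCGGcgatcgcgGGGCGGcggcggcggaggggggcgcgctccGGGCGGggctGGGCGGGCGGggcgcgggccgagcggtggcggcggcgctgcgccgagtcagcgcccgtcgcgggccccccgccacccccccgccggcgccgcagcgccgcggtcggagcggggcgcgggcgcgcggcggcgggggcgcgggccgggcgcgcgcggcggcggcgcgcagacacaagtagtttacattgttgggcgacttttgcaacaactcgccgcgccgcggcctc
RXRA downstream start, chr9:134379045-134379344: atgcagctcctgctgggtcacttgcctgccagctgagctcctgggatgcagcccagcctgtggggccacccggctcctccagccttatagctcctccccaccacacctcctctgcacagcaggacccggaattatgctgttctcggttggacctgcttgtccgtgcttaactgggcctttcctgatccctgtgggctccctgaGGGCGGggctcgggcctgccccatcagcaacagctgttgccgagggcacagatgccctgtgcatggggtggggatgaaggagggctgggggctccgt
RARG start, chr12:53232160-53232459, minus strand: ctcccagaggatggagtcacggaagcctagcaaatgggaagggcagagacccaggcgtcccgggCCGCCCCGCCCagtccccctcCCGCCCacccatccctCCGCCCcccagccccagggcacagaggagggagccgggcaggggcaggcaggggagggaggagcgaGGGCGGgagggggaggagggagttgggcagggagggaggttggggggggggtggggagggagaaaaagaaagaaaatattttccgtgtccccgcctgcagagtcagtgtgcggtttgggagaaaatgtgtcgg
The upstream RXRA window held 6 GC boxes and 65 CpG dinucleotides, against a median of 14 CpGs over all 35116 promoter windows. The downstream RXRA window held 1 GC box and 8 CpGs, and the RARG window held 5 GC boxes and 14 CpGs. A GC box was found in 45% of all windows and in 14 of the 17 windows that matched 9 of the 10 receptors. PPARA windows held 8 and 9, the THRA window held 9 and the PPARD window held 3. The nuclear receptor half-site AGGTCA, on either strand, was found in 13.8% of all windows, in 1 window each of NR1H3 and RARA, and in neither RXRA window. These matches describe the letters of the windows only.

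KDM4C itself, the targeted gene, had 40.5, 43.0, 49.8 and 55.1 CPM (counts scaled to a common library size, with a correction for library composition) in sg2 libraries 1 to 4, 59.5, 60.8, 63.3 and 63.2 CPM in sg3 libraries, and 67.8, 70.3, 68.1 and 71.4 CPM in control libraries. All 8 knockout libraries lay below all 4 control libraries, further so with sg2 than with sg3. Its mRNA counts do not measure the share of cells edited. Total counts ranged from 10031809 to 78966125 per library, so values of weakly expressed genes are less exact in the shallower ones. Erythroid and megakaryocytic genes, which HEL cells are known to express, were both present. The summed level of 5 megakaryocytic genes was 475 to 579 FPKM (CPM per kilobase of exon) in knockout libraries and 423 to 438 FPKM in control libraries, most of it ITGA2B. PF4, 1 of these genes, went the other way, averaging 1.65 FPKM in sg2, 1.33 FPKM in sg3 and 2.02 FPKM in control. The summed level of 9 erythroid genes was 8510 to 10800 FPKM in knockout libraries and 9200 to 10300 FPKM in control libraries. The summed level of 6 monocyte and granulocyte genes was 30.8 to 37.0 FPKM in knockout libraries and 24.8 to 30.9 FPKM in control libraries, most of it LYZ, with ELANE and MPO at or near 0. Sums of 7 lymphocyte genes were 5.33 to 7.42 FPKM in knockout libraries and 3.90 to 4.46 FPKM in control libraries, and those of 6 fibroblast genes were 0.586 to 0.806 FPKM in knockout libraries and 0.397 to 0.452 FPKM in control libraries. Of these, 4 lymphocyte and 3 fibroblast genes, CD3D, CD3E, COL1A2 and DCN among them, had at most 3 counts in any library. Most of the lymphocyte sum was CD79A (3.03 FPKM in sg2, 3.55 in sg3 and 2.37 in control) and NKG7 (2.71, 3.06 and 1.82 FPKM). The part of these differences in the results below was not tested.

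RXRA mRNA was lower with both guides. It had 5.68, 5.93, 6.18 and 7.27 CPM in sg2 libraries 1 to 4, 7.69, 7.43, 6.03 and 6.05 CPM in sg3 libraries, and 13.5, 14.5, 13.6 and 13.8 CPM in control libraries. All 8 knockout libraries lay below all 4 control libraries, and the 2 guides overlapped each other. The means were 6.26 ± 0.703 CPM in sg2, 6.80 ± 0.888 CPM in sg3 and 13.8 ± 0.455 CPM in control (SD, n = 4 each). On the log2 scale the difference from control was -1.16 ± 0.10 for sg2, -1.03 ± 0.10 for sg3 and -1.09 ± 0.08 for the average of both guides, where ± after a log2 difference is its standard error. The average corresponds to 0.469 times the control level, and it was the 70th lowest of 13996 genes tested. Raw counts behind these values were 62 to 194 in sg2, 84 to 148 in sg3 and 183 to 1144 in control libraries. In such bulk samples, fewer cells that express a gene and less RNA per cell cannot be told apart.

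**Figure D1:**
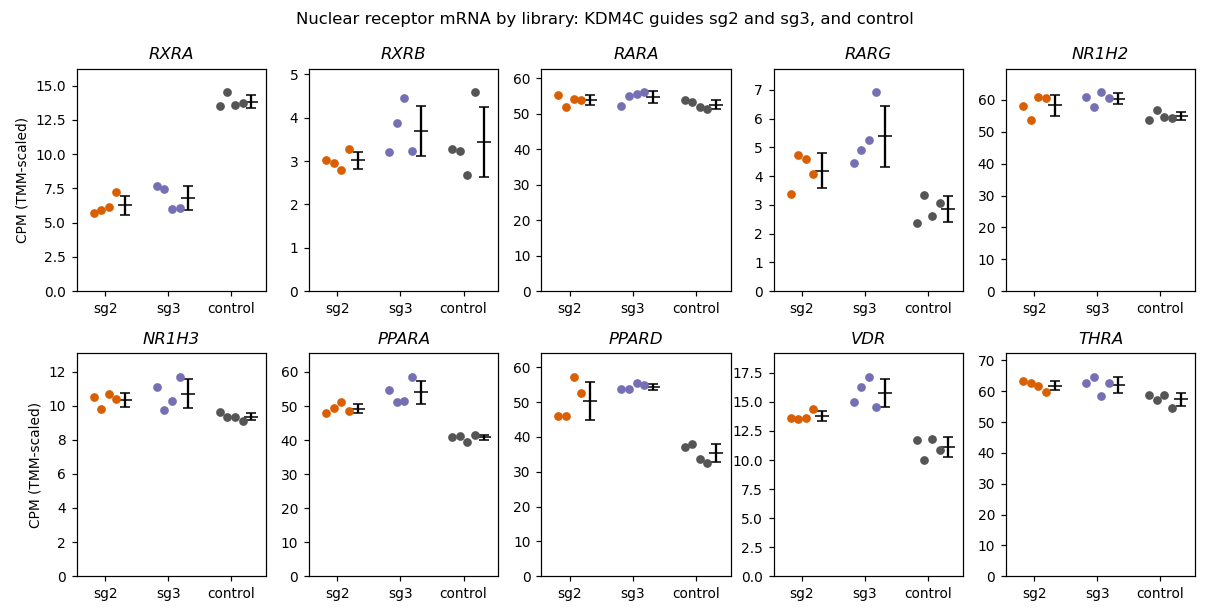
CPM of the 10 receptor genes (y axes from 0) in each library of sg2, sg3 and control (points), with the mean and SD of 4 libraries beside them (bars). RXRA lies between 5.68 and 7.69 CPM in the 8 knockout libraries, below all control libraries, and RARG, NR1H3, PPARA, PPARD and VDR lie above all control libraries in all 8. The share of all genes that separate in this way was not counted.

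Of the other RXR genes, RXRB gave no usable level and RXRG was not detected. RXRB had 3.02, 2.96, 2.79 and 3.29 CPM in sg2 libraries, 3.22, 3.87, 4.45 and 3.24 CPM in sg3 libraries, and 3.28, 3.23, 2.68 and 4.58 CPM in control libraries, so all 3 groups overlapped, and the average difference was 0.00 ± 0.13 on the log2 scale. The count table places RXRB at chr6:33193585-33200991 and on 5 alternate contigs of the same region. All 11 other protein-coding genes within 100 kb of it are also placed on alternate contigs, and 6 of them had at most 10 counts in every library. SLC39A7, a zinc transporter gene whose exons overlap those of RXRB, had 0 counts in all 12 libraries, and RPS18, a ribosomal protein gene picked after its values were seen, had 0 to 6. With near-empty counts for a ribosomal protein gene, the 28 to 255 counts of RXRB cannot be read as its level, and no RXR total is given. RXRG had 0 counts in all 12 libraries.

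Across the 10 receptors, 6 were called higher (RARG, NR1H2, PPARA, PPARD, VDR and THRA), 1 was called lower (RXRA) and 3 were not called (RXRB, RARA and NR1H3) for the average of both guides, where 43.9% of all genes tested were called, 21.6% higher and 22.3% lower. For sg2 alone, 4 were called higher and 1 lower, with 28.3% of all genes called (14.5% higher and 13.9% lower), and for sg3 alone 6 were called higher and 1 lower, with 44.1% of all genes called (21.9% higher and 22.2% lower). Their median log2 difference for the average was 0.14, RXRB included, against 0.00 over all genes. How many of all genes had every knockout library above or below every control library was not counted. Statements of such separation, here and below, are therefore descriptions, and NR1H3 separated in this way without being called.

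**Figure D2:**
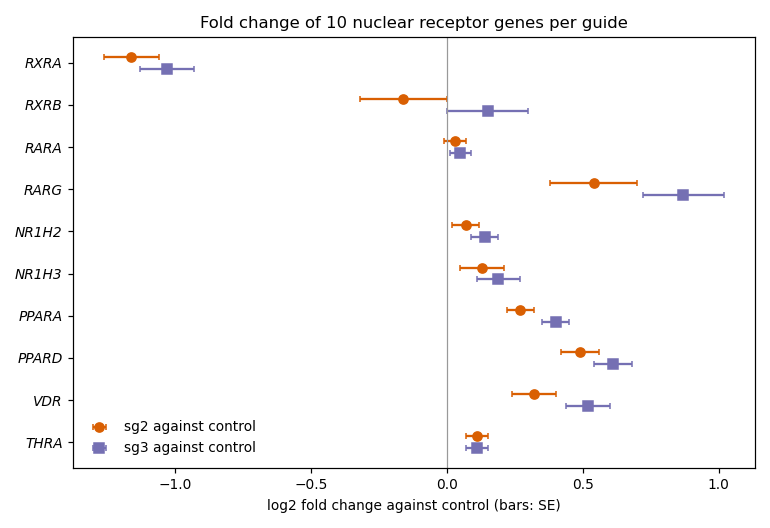
Log2 difference from control (x axis) of the 10 receptor genes for sg2 (circles) and sg3 (squares), with standard errors as bars. RXRA stands at -1.16 and -1.03, RARG is furthest to the right at 0.54 and 0.87, and RARA, NR1H2 and THRA lie within 0.14 of 0.

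The retinoic acid receptors differed from each other. RARG, the less abundant of the pair, had 3.38, 4.74, 4.58 and 4.07 CPM in sg2 libraries, 4.47, 4.92, 5.26 and 6.91 CPM in sg3 libraries, and 2.38, 3.36, 2.62 and 3.08 CPM in control libraries. All 8 knockout libraries lay above the control libraries, the nearest by a small margin, and the log2 difference was 0.54 ± 0.16 for sg2, 0.87 ± 0.15 for sg3 and 0.70 ± 0.14 for the average. RARA had 55.4, 52.0, 54.3 and 54.0 CPM in sg2 libraries, 52.4, 54.9, 55.6 and 56.1 CPM in sg3 libraries, and 53.9, 53.4, 51.8 and 51.5 CPM in control libraries. Its groups overlapped and its average log2 difference was 0.04 ± 0.03. Of RARA exon bases, 20.7% overlap RARA-AS1 on the opposite strand, and the stated counting options name no strand. RARA-AS1 was weakly expressed (18 to 122 counts) and called higher by 0.44 ± 0.16 (adjusted p = 0.0365). RARB had at most 1 count in any library.

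Of 32 listed genes that supply or break down retinoids, 15 could be tested, 7 rose, 2 fell and 6 were not called, with a median log2 difference of 0.14. The shares that rose (46.7%) and fell (13.3%) stand beside 21.6% and 22.3% of all genes tested, and the same shares of all genes apply to each list below. The retinol transport receptor STRA6 had 15.0, 15.0, 17.7 and 16.3 CPM in sg2 libraries, 15.3, 18, 17.5 and 20.4 CPM in sg3 libraries, and 11.0, 12.5, 10.3 and 11.9 CPM in control libraries, a rise of 0.54 ± 0.08 (adjusted p = 4.54e-05). DHRS3, which reduces retinal back to retinol, rose by 0.47 ± 0.06 (adjusted p = 6.81e-06), and ALDH1A1, which makes retinoic acid from retinal and was the most abundant gene of this list, rose by 0.23 ± 0.04 (adjusted p = 0.000104). These genes lay above all control libraries in all 8 knockout libraries. DHRS9, a retinol dehydrogenase at a low level (1.96 CPM in sg2, 1.29 CPM in sg3 and 0.889 CPM in control on average), rose by 0.98 ± 0.23 (adjusted p = 0.00275), and LRAT, which esterifies retinol for storage, rose by 0.30 ± 0.08 (adjusted p = 0.00466). The genes that fell were FABP5, a fatty acid and retinoic acid carrier that is known to deliver to PPARD (-0.46 ± 0.10, adjusted p = 0.00106), and RDH10, a retinol dehydrogenase (-0.23 ± 0.06, adjusted p = 0.00576). FABP5 had 96.8, 88.8, 81.2 and 79.6 CPM in sg2 libraries, 79.9, 79.5, 64.5 and 47.6 CPM in sg3 libraries, and 105, 103, 116 and 98.3 CPM in control libraries, and it was called with sg3 but not with sg2.

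Of 30 listed targets of the retinoic acid receptors, 16 could be tested, 7 rose (43.8%), none fell and 9 were not called, with a median of 0.10. ICAM1, a cell adhesion molecule, had 31.9, 32.4, 40.5 and 40.7 CPM in sg2 libraries, 40.3, 40.8, 45.2 and 43.5 CPM in sg3 libraries, and 23.5, 23.9, 25.9 and 22 CPM in control libraries, a rise of 0.71 ± 0.07 (adjusted p = 1.17e-06). TGM2, a transglutaminase, averaged 266 ± 20.8 CPM in sg2, 329 ± 20.4 CPM in sg3 and 204 ± 4.24 CPM in control (SD, n = 4 each), and rose by 0.53 ± 0.05 (edgeR adjusted p = 4.36e-07). BTG2, an antiproliferative gene, rose by 0.39 ± 0.08 (adjusted p = 0.00116) and the homeobox gene MEIS1 by 0.28 ± 0.06 (adjusted p = 0.001). STRA6 and DHRS3 are also on this list. ETS1, the transcription factor with the highest level of the list, was not called (-0.04 ± 0.03), and neither were HOXA5 (0.06), HOXB4 (0.03) or the retinoic acid hydroxylase CYP26B1 (0.20).

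The liver X receptors were close to control. NR1H2, the broadly expressed one, had 58.0, 53.7, 60.8 and 60.5 CPM in sg2 libraries, 60.8, 57.9, 62.3 and 60.6 CPM in sg3 libraries, and 53.7, 56.8, 54.7 and 54.5 CPM in control libraries. Of its 8 knockout libraries 7 lay above all control libraries, and the average log2 difference was 0.11 ± 0.04. NR1H3, known from macrophages and liver, had 10.5, 9.78, 10.7 and 10.4 CPM in sg2 libraries, 11.1, 9.74, 10.3 and 11.7 CPM in sg3 libraries, and 9.60, 9.36, 9.33 and 9.09 CPM in control libraries. All 8 lay above the control libraries by a small margin, with an average of 0.16 ± 0.07. Of NR1H3 exon bases, 6% overlap ACP2, a lysosomal acid phosphatase gene on the opposite strand that was called lower (-0.23 ± 0.07, adjusted p = 0.00916).

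Of 25 listed liver X receptor targets, NR1H3 itself among them, 19 could be tested, 9 rose (47.4%), none fell and 10 were not called, with a median of 0.18. The cholesterol exporters ABCA1 (-0.09 ± 0.11) and ABCG1 (-0.14 ± 0.07), the LDL receptor degrader MYLIP (0.01 ± 0.06) and the lipogenic regulator SREBF1 (-0.10 ± 0.05) were not called for the average, and SREBF1 was called lower with sg2 (-0.16). The lipid transporter ABCA7 had 87.6, 93.8, 129 and 132 CPM in sg2 libraries, 128, 131, 139 and 151 CPM in sg3 libraries, and 80.5, 83.3, 76.0 and 84.4 CPM in control libraries, a rise of 0.60 ± 0.09 (adjusted p = 6.92e-05) in which sg2 libraries 1 and 2 stood closest to control. The cholesteryl ester transfer protein CETP rose by 0.51 ± 0.11 (adjusted p = 0.0012), the phospholipid transfer protein PLTP by 0.38 ± 0.05 (adjusted p = 3.37e-05), the lipid droplet protein PLIN2 by 0.38 ± 0.05 (adjusted p = 9.54e-06) and APOE by 0.27 ± 0.06 (adjusted p = 0.00149). SCD, a fatty acid desaturase with the highest level of the list, averaged 1235 ± 16.5 CPM in sg2, 1205 ± 18.2 CPM in sg3 and 1048 ± 19.8 CPM in control (SD, n = 4 each), a rise of 0.22 ± 0.03 (edgeR adjusted p = 9.98e-06). LRP1, an endocytic receptor at 1.28 CPM in sg2, 1.88 CPM in sg3 and 0.633 CPM in control on average, rose by 1.19 ± 0.27 (adjusted p = 0.00222). Of 12 enzymes that make or remove sterol ligands, 4 could be tested, 1 rose and 3 were not called. The gene that rose was EBP, a sterol isomerase (0.33 ± 0.05, adjusted p = 0.000162).

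PPARA and PPARD were higher with both guides. PPARD, which is expressed in most tissues, had 46.0, 45.9, 57.1 and 52.7 CPM in sg2 libraries, 53.9, 53.7, 55.5 and 54.8 CPM in sg3 libraries, and 37.1, 38.0, 33.7 and 32.6 CPM in control libraries. The groups of knockout and control libraries did not overlap, and the log2 difference was 0.49 ± 0.07 for sg2, 0.61 ± 0.07 for sg3 and 0.55 ± 0.06 for the average. PPARA, a regulator of fatty acid oxidation in liver, had 47.8, 49.4, 51.1 and 48.6 CPM in sg2 libraries, 54.8, 51.3, 51.6 and 58.4 CPM in sg3 libraries, and 40.8, 41.1, 39.5 and 41.5 CPM in control libraries. Here all 3 groups were apart, sg3 highest, with 0.27 ± 0.05 for sg2, 0.40 ± 0.05 for sg3 and 0.34 ± 0.04 for the average. PPARG had 0 counts in all 12 libraries.

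Of 39 listed PPAR targets, 28 could be tested, 9 rose (32.1%, against 21.6% of all genes), 1 fell (3.57%, against 22.3%) and 18 were not called, with a median of 0.03. CPT1A, which brings fatty acids into mitochondria, had 133, 134, 137 and 128 CPM in sg2 libraries, 130, 133, 129 and 146 CPM in sg3 libraries, and 137, 129, 128 and 134 CPM in control libraries, so the groups overlapped. PDK4, a kinase that restrains glucose oxidation, had 1.29, 1.38, 2.39 and 1.41 CPM in sg2 libraries, 2.68, 1.61, 2.30 and 2.23 CPM in sg3 libraries, and 1.19, 0.608, 0.641 and 1.13 CPM in control libraries, a rise of 1.15 ± 0.24 (adjusted p = 0.00103). The β-oxidation genes ACAA2 (0.31 ± 0.05, adjusted p = 0.000153), HADHA (0.15 ± 0.03, adjusted p = 0.00096) and HADHB (0.11 ± 0.03, adjusted p = 0.0132) also rose. ANGPTL4, a lipoprotein lipase inhibitor, rose by 1.24 ± 0.46 (adjusted p = 0.038) while under 2 CPM in every library, and was called in 10 of 18 alternatives. ACOT2, an acyl-CoA thioesterase, fell (-0.21 ± 0.08, adjusted p = 0.0378), and UCP2, a mitochondrial carrier with the highest level of the list, was not called (0.07 ± 0.04).

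VDR mRNA was also higher with both guides. It had 13.6, 13.5, 13.7 and 14.4 CPM in sg2 libraries, 15.0, 16.3, 17.1 and 14.5 CPM in sg3 libraries, and 11.8, 9.98, 11.8 and 10.8 CPM in control libraries. The 3 groups did not overlap, sg3 being highest and control lowest, and the log2 difference was 0.32 ± 0.08 for sg2, 0.52 ± 0.08 for sg3 and 0.42 ± 0.07 for the average. Of 30 genes listed as vitamin D receptor targets or vitamin D enzymes, 12 could be tested, 9 rose, none fell and 3 were not called, so 75% were called higher, against 21.6% of all genes, and the median was 0.25. With sg2 alone 4 rose (33.3%, against 14.5% of all genes), and with sg3 alone 7 rose (58.3%, against 21.9% of all genes). The list was chosen with earlier results known, so these shares are descriptions.

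CDKN1A, the cell cycle inhibitor p21, had 8.48, 8.16, 9.67 and 11.0 CPM in sg2 libraries, 9.36, 10.1, 10.3 and 8.13 CPM in sg3 libraries, and 4.58, 5.32, 4.66 and 5.18 CPM in control libraries, a rise of 0.91 ± 0.10 (adjusted p = 2.7e-06). It is also a target of p53, as is GADD45A, a stress-response gene that rose by 0.22 ± 0.05 (adjusted p = 0.00253). The Wnt coreceptor LRP5 rose by 0.37 ± 0.06 (adjusted p = 7.9e-05) and the lipid droplet gene HILPDA, also known as induced by hypoxia, by 0.41 ± 0.08 (adjusted p = 0.00103). SEMA6B, a semaphorin, rose by 1.08 ± 0.36 (adjusted p = 0.0212) and CD93, a myeloid and endothelial surface receptor, by 0.83 ± 0.30 (adjusted p = 0.0354), both at low levels, and CD93 was called in 7 of 18 alternatives. CYP27B1, which activates vitamin D, was not called (-0.05 ± 0.11). The vitamin D enzyme gene CYP24A1 had 0.072 CPM in sg3 library 4 and 0 CPM in all others, and could not be tested.

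THRA was slightly above control. It had 63.2, 62.8, 61.6 and 59.9 CPM in sg2 libraries, 62.8, 64.5, 58.5 and 62.7 CPM in sg3 libraries, and 59.0, 57.1, 58.9 and 54.5 CPM in control libraries. Of its 8 knockout libraries 7 lay above all control libraries, and the average log2 difference was 0.11 ± 0.04. NR1D1, a clock repressor whose exons overlap 4.43% of THRA exon bases on the opposite strand, was not called (-0.05 ± 0.07). THRB had at most 4 counts in any library. Of 24 listed thyroid hormone targets and transporters, 15 could be tested, 5 rose (33.3%), 5 fell (33.3%) and 5 were not called, with a median of -0.04.

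Among the genes of the thyroid list, the transcription factors KLF9, a direct thyroid hormone target (0.30 ± 0.07, adjusted p = 0.00191), KLF11 (0.65 ± 0.07, adjusted p = 4.69e-06) and the NF-kappaB cofactor BCL3 (0.79 ± 0.10, adjusted p = 1.42e-05) rose, as did MYH6, a cardiac myosin under 1 CPM in every library (1.04 ± 0.31, adjusted p = 0.0111). The 3 membrane carriers named here, which move thyroid hormone or amino acids, fell: SLC7A8 (-0.48 ± 0.10, adjusted p = 0.00113), SLC16A10 (-0.24 ± 0.07, adjusted p = 0.00739) and SLC7A5 (-0.17 ± 0.04, adjusted p = 0.00177). SLC7A8 had 5.18, 4.98, 3.39 and 3.52 CPM in sg2 libraries, 5.19, 5.37, 4.78 and 5.04 CPM in sg3 libraries, and 6.63, 6.79, 6.12 and 6.76 CPM in control libraries, with no overlap between knockout and control. The postsynaptic protein gene NRGN, the most abundant of the list, fell by 0.20 on the log2 scale (SE 0.04, adjusted p = 0.000597).

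Levels per gene length placed the receptors in an order that differed between the groups at 2 places. In control libraries NR1H2 was highest (22.7 FPKM), followed by THRA (9.66), RARA (8.55), PPARD (6.39), PPARA (3.61), NR1H3 (3.26), VDR (2.15), RXRA (1.88) and RARG (0.812 FPKM), with RXRB left out. Of these neighbours, only VDR and RXRA overlapped in range over the control libraries. RXRA averaged 0.853 FPKM in sg2, 0.926 FPKM in sg3 and 1.88 FPKM in control, and RARG averaged 1.19 FPKM in sg2, 1.53 FPKM in sg3 and 0.812 FPKM in control, so RXRA stood below RARG with both guides and above it in control. The RXRA and RARG ranges overlapped in sg2 and not in sg3 or control. This change of order holds per gene length only. In CPM, RXRA averaged above RARG in every group (6.26 against 4.19 in sg2 and 6.80 against 5.39 in sg3). These genes were also the members furthest below and above control. PPARD stood above RARA with both guides and below it in control, its range overlapping that of RARA in sg2. In CPM, PPARD averaged below RARA in every group (50.4 against 53.9 in sg2 and 54.5 against 54.7 in sg3).

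**Figure D3:**
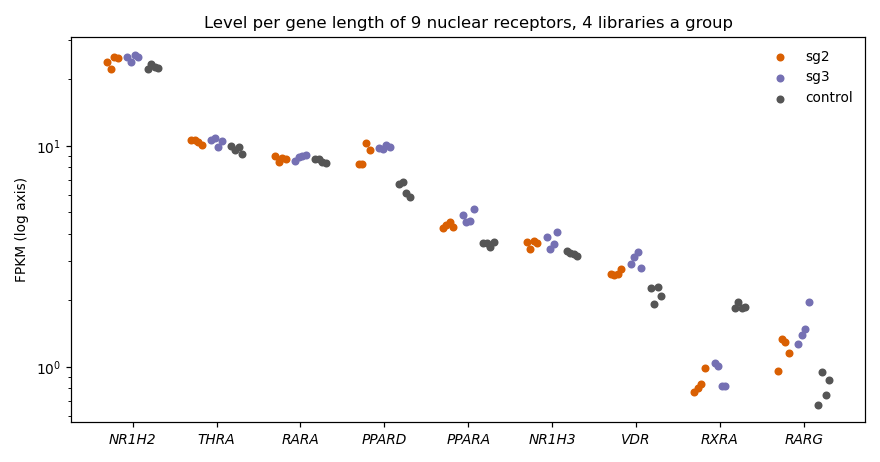
Level per gene length (FPKM, log y axis) of 9 receptor genes in sg2, sg3 and control, 1 point per library, ordered by the control mean. NR1H2 is highest in all groups, and RXRA and RARG change places at the low end, with RXRA at 0.853 FPKM in sg2, 0.926 FPKM in sg3 and 1.88 FPKM in control.

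The guides were then compared with each other, a contrast that did not choose the members. None of the 10 receptors was called for sg3 against sg2 (edgeR), and neither DESeq2 nor the other alternatives called one. Of all 13996 genes tested, 0.00714% were called, which is KIT alone, and 2098 had an unadjusted p under 0.05. At that unadjusted threshold 2 of the 10 passed: PPARA, at 0.13 with a 95% interval of 0.03 to 0.23 (adjusted p = 0.231), and VDR, at 0.20 with an interval of 0.03 to 0.37 (adjusted p = 0.266). For both, the 4 sg3 libraries lay above the 4 sg2 libraries, by a small margin. The nearest libraries of sg3 and sg2 had 51.3 and 51.1 CPM for PPARA, and 14.5 and 14.4 CPM for VDR. How many of all genes separate in this way was not counted, and nothing is read from these 2 genes. RXRA differed by 0.13 between the guides, with an interval of -0.10 to 0.36 that leaves a small difference in either direction possible at this depth. The interval of RARG ran from 0.00 to 0.67 and that of THRA from -0.09 to 0.10.

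Several genes outside the 10 receptors that were called for the average of both guides were called with 1 guide only. SEMA6B (0.79 with sg2), LRP1 (0.83), ANGPTL4 (0.89), APOE, HADHB, HILPDA, FABP5, RDH10, NR4A1, ESRRA, MED1, SLC16A10, RARA-AS1, ACP2 and SARDH were called with sg3 and not with sg2. CD93 (0.59 with sg3), DHRS9 (0.68), NCOA3 and PPARGC1B were called with sg2 and not with sg3, and ACOT2 and NR2C2 were called with neither alone. None of these genes was called for sg3 against sg2, so a difference between the guides was not shown for any of them.

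Of 38 other nuclear receptor genes, which include RXRG, RARB, PPARG and THRB, 17 could be tested, 4 rose (23.5%), 4 fell (23.5%) and 9 were not called, with a median of 0.02. NR5A1, the steroidogenic factor with the highest level per length among them (43.7 FPKM over all libraries), had 124, 130, 128 and 123 CPM in sg2 libraries, 123, 132, 128 and 126 CPM in sg3 libraries, and 152, 146, 156 and 144 CPM in control libraries, a fall of 0.24 on the log2 scale (SE 0.03, adjusted p = 2.58e-05). The orphan receptors NR6A1 (-0.36 ± 0.05, adjusted p = 3.63e-05) and NR2F2 (-0.27 ± 0.05, adjusted p = 0.000166) also fell, as did ESRRA, a regulator of mitochondrial genes (-0.13 ± 0.05, adjusted p = 0.0357). The immediate early receptor NR4A1 (0.40 ± 0.09, adjusted p = 0.00246), the clock repressor NR1D2 (0.39 ± 0.06, adjusted p = 0.000141), NR2C1 (0.20 ± 0.05, adjusted p = 0.00612) and NR2C2 (0.12 ± 0.04, adjusted p = 0.0306) rose.

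Of 28 corepressors, 25 could be tested, 8 rose, 4 fell and 13 were not called, so 48% were called, close to the 43.9% of all genes, with a median of -0.05. NCOR1, which holds unliganded receptors silent, was not called (-0.05 ± 0.04). The class II histone deacetylases HDAC7 (0.37 ± 0.04, adjusted p = 5.95e-06) and HDAC5 (0.36 ± 0.05, adjusted p = 3.78e-05) and the corepressor complex member CORO2A (0.30 ± 0.09, adjusted p = 0.0157) rose, and GPS2 (-0.23 ± 0.04, adjusted p = 0.000324), HDAC1 (-0.16 ± 0.04, adjusted p = 0.00312), NSD1 (-0.26 ± 0.05, adjusted p = 0.000607) and SPEN (-0.19 ± 0.05, adjusted p = 0.00383) fell. TRIM28, the most abundant, was not called (-0.07 ± 0.03).

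Of 38 coactivators, 36 could be tested, 6 rose (16.7%), 14 fell (38.9%) and 16 were not called, with a median of -0.08. The p160 coactivators NCOA1 (-0.05 ± 0.04) and NCOA2 (0.01 ± 0.05) and the acetyltransferases CREBBP and EP300 (both -0.07 ± 0.05) were not called, and NCOA3 rose by 0.13 ± 0.04 (adjusted p = 0.0142). The PGC-1 relative PPRC1 had 178, 186, 177 and 163 CPM in sg2 libraries, 153, 157, 173 and 176 CPM in sg3 libraries, and 218, 222, 206 and 218 CPM in control libraries, a fall of 0.34 on the log2 scale (SE 0.04, adjusted p = 1.02e-05). NCOA5 (-0.33 ± 0.05, adjusted p = 0.000137), PPARGC1B (-0.18 ± 0.06, adjusted p = 0.0179), the mediator subunit MED1 (-0.14 ± 0.03, adjusted p = 0.00225) and the arginine methyltransferase PRMT1, the most abundant of the list (-0.19 ± 0.03, adjusted p = 0.000114), fell too. CALCOCO1 (0.72 ± 0.10, adjusted p = 2.39e-05), HELZ2 (0.60 ± 0.12, adjusted p = 0.000701) and the ferritin autophagy receptor NCOA4 (0.38 ± 0.04, adjusted p = 3.03e-06) rose, CALCOCO1 being another autophagy receptor.

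**Figure D4:**
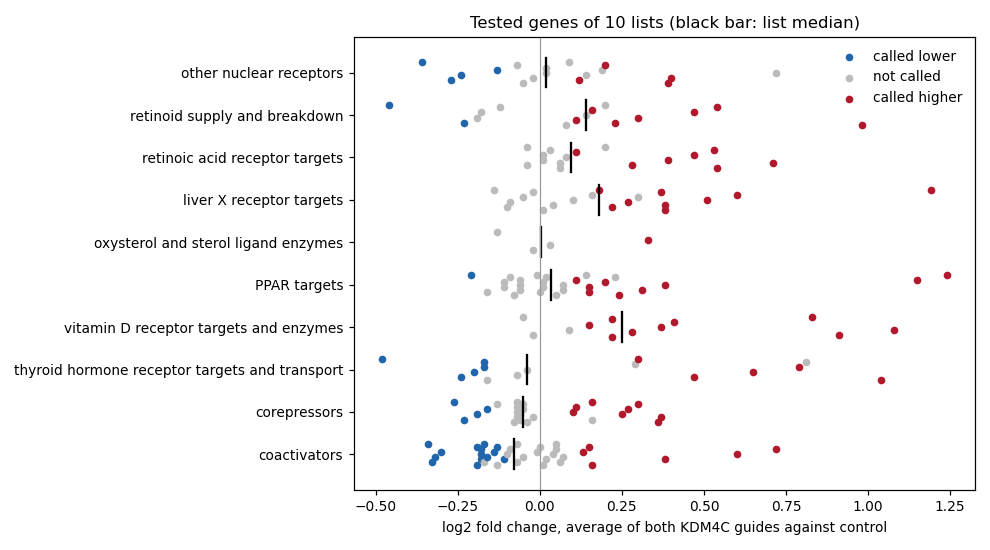
Log2 difference of the average of both guides from control (x axis) for the 182 tested genes of 10 lists, some of them on more than 1 list, coloured by call (red higher, blue lower, grey not called), with the list median as a black bar. Medians run from -0.08 for coactivators to 0.25 for vitamin D receptor targets and enzymes.

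The genes whose pattern over the 12 libraries was nearest to that of RXRA, by the root mean square difference of log2 CPM centred on the control mean among 10198 genes, were CNNM1 (0.18), ALPK3 (0.20), SLC30A3 (0.22), NECTIN1 (0.22) and PDE5A (0.26). They encode a cyclin M family membrane protein, an alpha kinase, a zinc transporter, an adhesion molecule and a cyclic GMP phosphodiesterase. SLC30A3 had 14.8, 16.7, 15.0 and 14.3 CPM in sg2 libraries, 15.0, 14.4, 17.3 and 12.8 CPM in sg3 libraries, and 29.4, 28.8, 28.5 and 28.0 CPM in control libraries. NECTIN1, at 14.2 ± 0.586 CPM in sg2, 11.6 ± 0.875 CPM in sg3 and 28.9 ± 1.0 CPM in control (SD, n = 4 each), had log2 differences from control of -1.02 with sg2 and -1.31 with sg3, against -1.16 and -1.03 for RXRA. Since these genes were picked for their likeness to RXRA, their differences from control are descriptions.

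**Figure D5:**
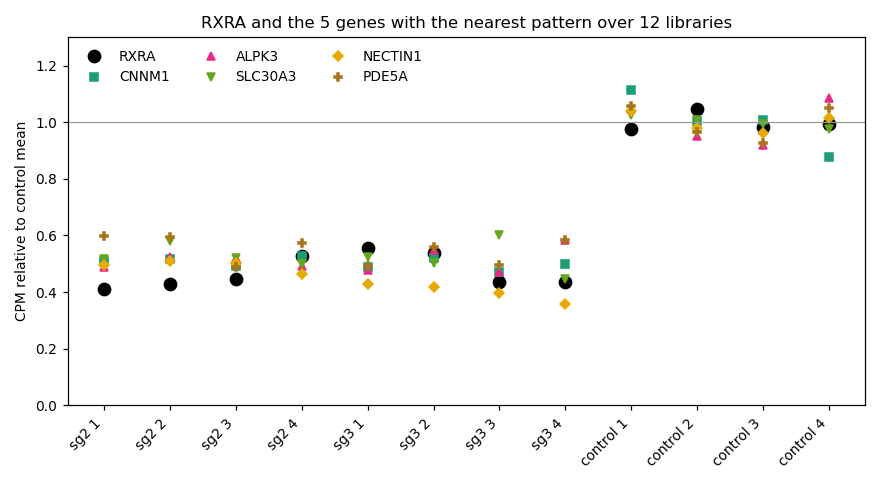
CPM relative to the control mean (y axis from 0) of RXRA and the 5 genes with the nearest pattern, in each of the 12 libraries (x axis, sg2, sg3, control). All 6 genes lie well below 1 in the 8 knockout libraries and near 1 in the control libraries.

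Of 24 protein-coding genes lying within 1 Mb of RXRA, 6 could be tested, 1 rose, 3 fell and 2 were not called. The shares that rose (16.7%) and fell (50%) stand beside 21.6% and 22.3% of all genes tested, and nothing is read from so few genes. The 18 not tested were 11 genes that are also placed on an alternate contig, the ribosomal protein gene RPL7A among them, with at most 22 counts in any library, and 7 genes on the main chromosome alone with at most 2 counts. As near RXRB, low counts of the 11 cannot be read as their levels, whereas RXRA and the 6 tested neighbours are placed on the main chromosome alone. WDR5, a subunit of histone H3 methyltransferase complexes, fell by 0.44 on the log2 scale (SE 0.04, adjusted p = 4.36e-07) and BRD3OS fell by 0.28 (SE 0.08, adjusted p = 0.00777). SARDH, a mitochondrial sarcosine dehydrogenase, rose by 0.43 ± 0.12 (adjusted p = 0.00903), and ADAMTSL2 was not called (0.40 ± 0.19). Because RXRA was chosen by its difference from control, its place further below control than the 6 tested neighbours is a description. The exons of RXRA overlap those of MIR4669 over 0.845% of their bases, and MIR4669 had 0 counts in all 12 libraries.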

How the data were processed

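RNA was sequenced from 12 HEL libraries, 4 each for sg2, sg3 and control, grouped by their titles. The authors' processing, as given in the submitters' notes and the methods, used Trimmomatic 0.39 for trimming, STAR 2.7.4a for alignment to hg38 and featureCounts 2.0.1 for counting. Values in the deposited table are raw counts, without normalization. Of 38571 lines, 20 were broken (6 genes) and left out. Genes on several contigs (2.54% of those tested) may have lost reads. In 7 listed genes placed this way no library exceeded 20 counts, and none was tested.

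Counts were analysed with edgeR 4.0.16 in R 4.3.3: filterByExpr (minimum count 10, total 15; 13996 genes tested), TMM scaling and a quasi-likelihood fit over all 12 libraries. Adjusted p-values are Benjamini-Hochberg values over all genes tested, called at 0.05. The standard error is the log2 difference over the square root of F. FPKM is CPM per kilobase of exon on the main chromosome. Replicates of a group differed by more than sampling noise (reduced chi-square 1.71 to 12.5 over 18 pairs). The members and lists were chosen with earlier results of these data known. Beside the members and KDM4C, the genes named are up to 4 called genes with the largest change and the most abundant gene of each of 10 lists, the 5 genes most like RXRA, the 3 tested neighbours of RXRA with the largest change, and genes whose exons overlap members; a few that this rule takes are not reported here. Other genes were named after their values were seen, among them ABCA1, ABCG1, MYLIP, SREBF1, CPT1A, the HOX genes, RDH10, LRAT, PLTP, APOE, LRP5, HADHA, SLC7A5, SLC16A10, KLF9, NCOR1 and NCOA1 to NCOA3. Alternatives were RLE size factors, no filter, DESeq2 1.42.0, only the groups compared, a replicate block, each library left out, and sg2 libraries 1 and 2 left out.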

Additional observations from a re-analysis of the deposited data

Results flagged for a closer look

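Of 180 groups of 4 libraries compared over 60 named genes, 6 held 1 library that stood far from the other 3 by Dixon's criterion, which chance alone meets in about 5% of groups. Among the receptors this was VDR, with 14.4 CPM in sg2 library 4 where the nearest other sg2 library had 13.7 CPM. LRP1 had 2.45 CPM in sg3 library 4 (nearest 1.73) and 0.484 CPM in control library 1 (nearest 0.672). In sg2 library 3, PDK4 had 2.39 CPM (nearest 1.41) and SEMA6B had 1.59 CPM (nearest 0.469). UCP2 had 407 CPM in control library 1 (nearest 390).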

How the results depend on the processing

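For the average of both guides, RXRA lay between -1.13 and -1.03 on the log2 scale over 18 alternatives. Leaving out single libraries gave 4 to 7 receptors called higher, 5 to 8 corepressors higher, 6 to 9 vitamin D receptor targets higher, 0 to 1 PPAR targets lower, 0 to 1 liver X receptor targets lower, and 1 to 2 sterol ligand enzymes higher and 0 to 1 lower. For sg3 against sg2 over all genes it gave 0 to 147 calls higher and 0 to 54 lower, both highest without sg2 library 4. That contrast had 194 calls higher and 173 lower with no filter, 94 and 27 with DESeq2, 22 and 3 with the replicate block, and 0 higher with only the groups compared or without sg2 libraries 1 and 2. Without these 2 libraries, sg3 against sg2 turned to -0.01 for both NR1H2 and PPARD, and 1 liver X receptor target and 1 sterol ligand enzyme were called lower. The cause was not tested. Same-numbered libraries showed little shared deviation (r between -0.17 and 0.18), so no pairing was assumed, although a weak one could be present. The replicate block left 5 receptors called higher and 1 lower for the average. Outside the 10 receptors, the alternatives were run only for the genes taken from the lists by rule, the 5 genes most like RXRA, and WDR5. Other called genes named above, among them ACOT2, RARA-AS1, ESRRA and NR2C2, were not checked in this way. Of the log2 differences of the genes checked, 874 kept direction and side of the threshold. A call was lost in 24 (CD93 11, ANGPTL4 8, CORO2A and SEMA6B 2 each, MYH6 1) and gained in 2. Among the receptors, calls for the average were lost for NR1H2, which had one in 8 of 18 alternatives, and THRA, in 14, and NR1H3 gained one in 1. With sg2, RARG kept its call in 15 and NR1H2 gained one in 1, and with sg3, NR1H2 kept its call in 15, THRA in 11, and NR1H3 gained one in 1. At these depths, genes under 2 CPM are the least exact.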
